A study of Mus musculus with 3 samples.

Results

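The transcription factors that set up and maintain the cardiac muscle lineage were examined in adult hearts lacking Lrrc10, a gene that several of them are known to regulate. The members were Gata4, Gata6, Nkx2-5, Mef2a, Mef2c, Tbx5, Tbx20, Hand2, Srf and Myocd. Every probe that the array files name for one of these 10 genes was taken, which gave 22 of the 41174 gene probes on the array. Of these, 20 had a mean processed signal of at least 20 and entered the test, as did 29576 probes in all. The study hybridised 3 two-colour Agilent whole mouse genome arrays, replicates 1 to 3, with RNA of hearts from mice of strain C57/BL6 at 2 months of age. The Cy5 channel of each array was labelled as Lrrc10-/- and the Cy3 channel as the wild type (Lrrc10+/+, WT), each a pool of 2 hearts, with no dye swap. The labels call the WT channel a reference pool and the methods speak of 3 independent biological replicates, so whether each array had a WT pool of its own was not settled here. With each channel of each array centred on its median, the Cy3 signal varied more between arrays than the Cy5 signal for 77.7% of all tested probes. Without the centring it did so for 65.7%. Whole hearts were used, so fewer cells of a type and less RNA per cell cannot be told apart.

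The channel labels were first checked with the deleted gene. The Lrrc10 probe gave processed signals of 476, 443 and 352 in Cy3 and of 14283, 20828 and 17703 in Cy5 on replicates 1, 2 and 3. Lrrc10 was thus 41.4-fold brighter in the channel labelled Lrrc10-/- (mean log2 ratio 5.37 ± 0.41, SD, n = 3 arrays; limma adjusted p = 2.51e-04), which goes against that label. The ratio was above 0 on every array, but the limma call was lost with no signal filter (adjusted p = 0.975) and without replicate 2 (0.0793), as it was with the methods' t-test (1.0). The place of the probe relative to the deletion was not examined here. It was not settled which channel held which genotype, and all values below are given as Cy5 (the channel labelled Lrrc10-/-) over Cy3 (the channel labelled WT). With the channels exchanged, every sign turns. All 6 cardiomyocyte markers (Myh6, Tnnt2, Tnni3, Actc1, Ryr2 and Pln) were well above background in both channels of every array. Saturated readings occurred in 5 of them. The log2 ratios of all tested probes correlated between arrays with r of 0.10 (replicates 1 and 2), -0.04 (1 and 3) and -0.18 (2 and 3), as a description over probes that share their arrays.

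These factors act as a network. GATA factors, Nkx2-5 and T-box factors bind DNA together at cardiac enhancers, SRF recruits its coactivator myocardin to CArG boxes of contractile genes, and MEF2 factors bind A/T-rich sites of muscle genes. LRRC10 is a leucine-rich repeat protein of cardiac muscle cells, and Lrrc10 is a known target of members of this network.

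Because Lrrc10 lies downstream of these factors, the 250 bases before its gene start are shown first, from RefSeq (GRCm38.p6, plus strand, chr10:117045091-117045340). Capitals mark matches, on either strand, to AGATAA, a core that GATA factors bind, and to AAGTG, a core that Nkx2-5 binds.
Lrrc10 promoter: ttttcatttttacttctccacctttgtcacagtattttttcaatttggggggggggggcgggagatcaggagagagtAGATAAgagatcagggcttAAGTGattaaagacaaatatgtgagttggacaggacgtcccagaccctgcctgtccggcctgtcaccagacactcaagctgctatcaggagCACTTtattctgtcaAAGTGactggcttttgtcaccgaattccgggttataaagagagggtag
The stretch held 1 match to AGATAA, from 173 to 168 bases before the start, and 3 matches to AAGTG, from 154 to 150, 63 to 59 and 48 to 44 bases before it, with no overlap between the motifs. It held no match to the CArG box, the MEF2 site, AGGTGT (a T-box core) or CATCTG (an E-box form that HAND factors can bind). Of 32851 mouse promoter stretches of this length, 9.99% held AGATAA, 40.7% AAGTG, 1.47% the CArG box, 1.69% the MEF2 site, 11.8% AGGTGT and 14.4% CATCTG. A match is a description of the letters and not a binding site.

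Gata6 was left out when promoters of the members were taken from the same table, so the counts below do not cover it. The set taken held 8 promoter stretches for 6 of the members. The CArG box matched in 1 of them, that of Srf, where it occurred at 2 places, and this 70-base stretch (minus strand, chr17:46556195-46556264) is shown because SRF binds this motif, which is marked in capitals. It precedes an annotated start at position 46556162, which lies 2105 bases inside the RefSeq range of the gene, so it is not the stretch before the outermost start.
Srf promoter: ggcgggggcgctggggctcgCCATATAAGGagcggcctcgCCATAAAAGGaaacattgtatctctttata
Among the 8 stretches AAGTG was found in 5 (of Hand2, Mef2c and Srf), CATCTG in 2 (Hand2 and Mef2c), AGATAA in 1 (Hand2), AGGTGT in 1 (Mef2c) and the MEF2 site in 0. The array probes are 60-base oligonucleotides, and among the 17 pairs of probes of a same member, only 1 pair shared a run of at least 20 bases. Those were the Hand2 probes, shown with the 23 shared bases in capitals because their readings can be compared as near repeats of a measurement.
Hand2 probe 1: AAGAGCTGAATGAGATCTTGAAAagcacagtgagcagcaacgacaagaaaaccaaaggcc
Hand2 probe 2: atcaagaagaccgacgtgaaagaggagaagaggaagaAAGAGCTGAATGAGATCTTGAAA

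No member probe passed the test of its ratio across all probes. By limma with Benjamini-Hochberg adjustment over all tested probes, 0 of 20 member probes passed an adjusted p of 0.05 in either direction, where 0.00676% of all tested probes passed as brighter in Cy5 and 0.0% as brighter in Cy3. Those called were 2 probes, of Lrrc10 and of the transcript 4930564B18Rik, which was not well above background in Cy3. The adjusted p of each member probe was 1.0. At an unadjusted p under 0.05 the limma count was also 0 of 20, against 1.54% of all probes brighter in Cy5 and 1.52% brighter in Cy3, and the unadjusted p ran from 0.108 (Tbx5) to 0.952 (Gata4). The study's methods asked for a p under 0.05 and a ratio of at least 1.2 in a consistent direction on all 3 arrays. The ratio alone was met by 0 of 20 member probes, against 1.71% of all probes brighter in Cy5 and 1.95% brighter in Cy3. With an array p under 0.05 required on each array, here called the array selection, the share of all probes was 0.406% in Cy5 and 0.511% in Cy3. The array p belongs to a single spot on a single array and does not measure the spread between pools.

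The direction held on all 3 arrays for 3 of 20 member probes, those of highest signal for Mef2a, Tbx5 and Tbx20, all brighter in Cy5, as were 10.0% of all probes. None was brighter in Cy3 on all arrays (11.0% of all probes), and the other 17 changed direction between arrays. In the text below probe 1 of a gene is its brightest by mean signal over both channels and all arrays.

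**Figure D1:**
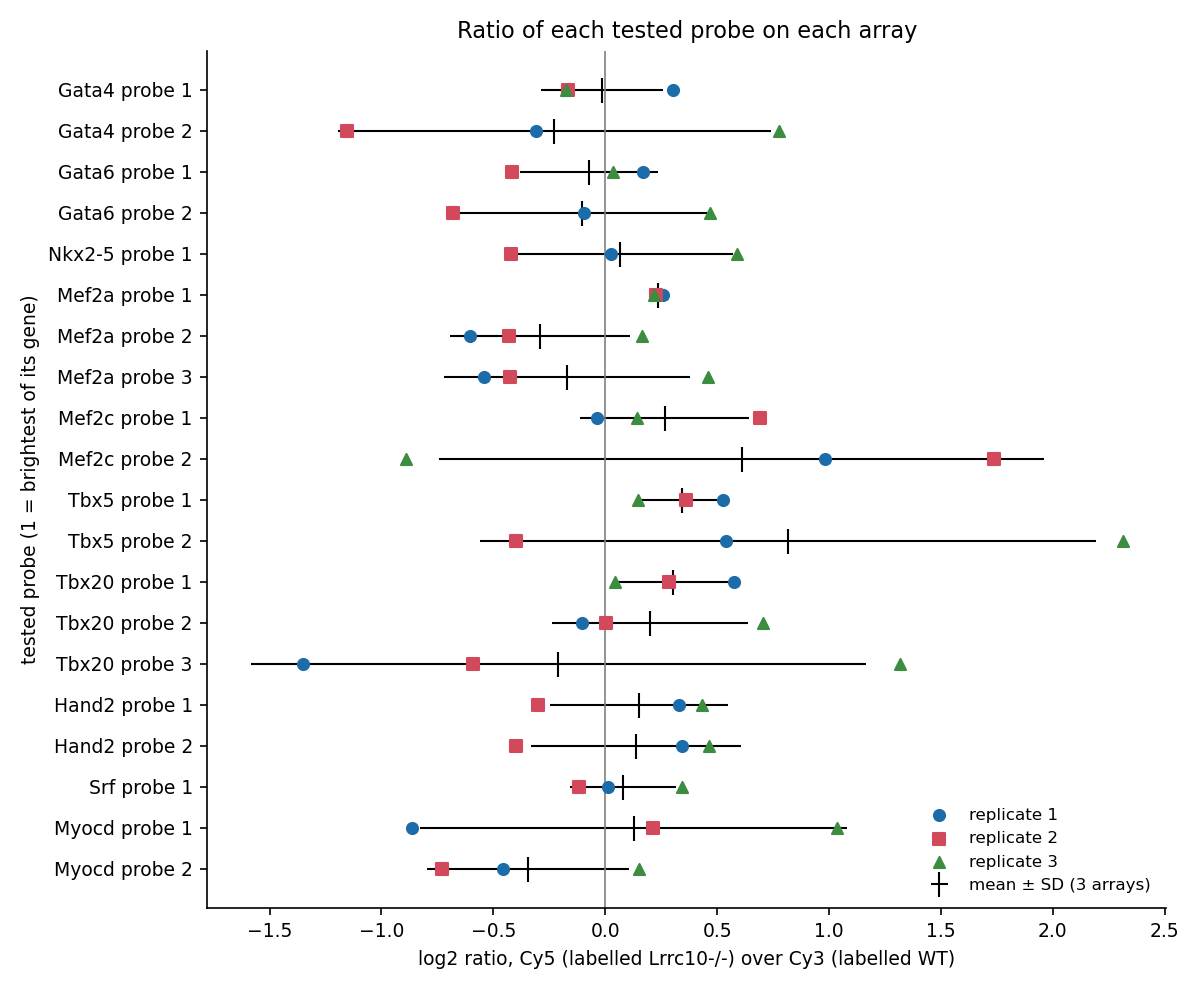
The 20 tested member probes by log2 ratio (horizontal axis, Cy5 over Cy3), with a symbol for each array and a line for the mean ± SD of 3 arrays. Only probe 1 of Mef2a, Tbx5 and Tbx20 had all arrays on the same side of 0, and the mean ratios ran from -0.34 to 0.34 among the 17 probes well above background in every channel.

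GATA4 and GATA6 are zinc finger factors that open cardiac enhancers and act in growth of the heart muscle. Gata4 (chr14:63198914-63271712, GRCm38.p6) was read by 2 probes that share no long run of bases. Probe 1 gave processed signals of 347, 493 and 311 in Cy3 and of 427, 439 and 276 in Cy5 on replicates 1, 2 and 3. The channels overlapped, and the log2 ratios of 0.30, -0.17 and -0.17 averaged -0.01 ± 0.27 (SD, n = 3; 95% moderated interval -0.53 to 0.50). Probe 2 of Gata4 was printed 10 times on each array, which shows the error of a spot apart from that of an array.

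On replicate 1 the 10 spots of Gata4 probe 2 ran from -0.47 to -0.16 (log2 ratio), on replicate 2 from -1.27 to -1.06 and on replicate 3 from 0.63 to 0.93. The ranges of the arrays did not overlap, and the ratio was on the Cy3 side on 2 arrays and on the Cy5 side on the third. The SD within an array was 0.09 (pooled) and the SD between the array means was 0.97. Among the 189 probes printed 10 times, the median was 0.07 within and 0.35 between arrays, and this probe ranked 6 by the SD between arrays. The array p was under 0.05 for 1, 10 and 10 of its 10 spots on replicates 1, 2 and 3, with opposite directions on the last pair of arrays. Its Cy3 medians were 284, 651 and 136, while its Cy5 medians were 226, 290 and 233, so that most of the movement was in the channel labelled WT. The Gata4 probe 2 mean ratio was -0.23 ± 0.97 (SD, n = 3 arrays; moderated interval -1.05 to 0.59).

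**Figure D2:**
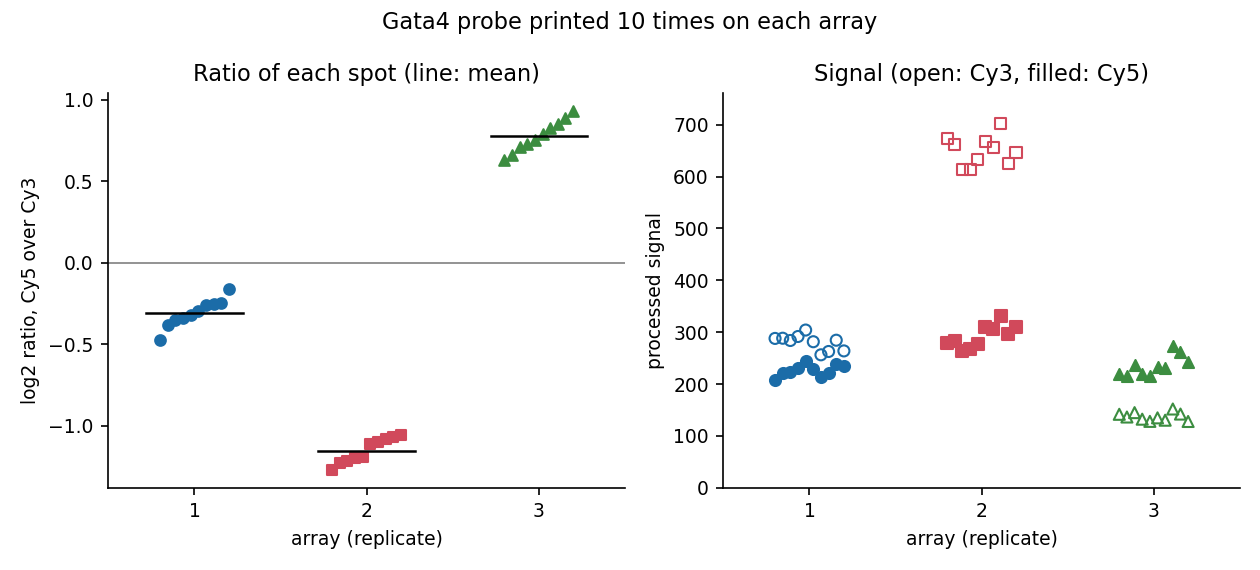
The 10 spots of Gata4 probe 2 on each array, ordered by ratio within the array, as log2 ratio of Cy5 over Cy3 with the mean as a line (left) and as processed signal in Cy3 (open) and Cy5 (filled) on a linear axis (right). The spots of an array lie close together while the arrays lie apart, with Cy3 medians of 284, 651 and 136 against Cy5 medians of 226, 290 and 233.

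Gata6 was read by 3 probes, of which 2 were tested. Probe 1 gave 6863, 13373 and 8423 in Cy3 and 7707, 10008 and 8638 in Cy5, with log2 ratios of 0.17, -0.42 and 0.04. Probe 2 gave 505, 987 and 328 in Cy3 and 473, 615 and 454 in Cy5, with ratios of -0.10, -0.68 and 0.47. Both probes were lowest on replicate 2, where Cy3 was at its highest, and their means were -0.07 ± 0.31 and -0.10 ± 0.58 (SD, n = 3). Probe 3 of Gata6, with 80% GC the most GC-rich of the member probes, had a mean signal of 11.6, was well above background in 1 channel of 1 array and was not tested. The median GC content of the member probes, 41.7%, equalled that of all tested probes.

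NKX2-5 is a homeodomain factor of the early heart field that stays expressed in adult muscle and conduction cells. Nkx2-5 (chr17:26838664-26844988) gave 8970.2, 16378 and 7684 in Cy3 and 9144, 12215 and 11561 in Cy5. Its log2 ratios of 0.03, -0.42 and 0.59 differed in direction, and the last pair each carried an array p under 0.05 (0.0416 and 0.00523). The Nkx2-5 mean was 0.06 ± 0.51 (SD, n = 3), with a moderated interval from 0.73-fold to 1.51-fold.

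MEF2A and MEF2C are MADS-box factors that drive muscle and metabolic genes. Mef2a (chr7:67231163-67376456) had 3 probes. Probe 1 gave 6136, 9424 and 7585 in Cy3 and 7339, 11034 and 8822 in Cy5, and Cy5 was the brighter channel on every array. Its log2 ratios of 0.26, 0.23 and 0.22 were the closest together of the tested member probes (mean 0.23 ± 0.02, SD, n = 3), yet no single ratio passed the array p and the moderated interval ran from -0.17 to 0.64. The mean turned to -0.04 with normexp background correction and loess, and the mean over all Mef2a probes was -0.076. The other two Mef2a probes moved the other way on replicates 1 and 2. Probe 2 had ratios of -0.61, -0.43 and 0.16 and probe 3 of -0.54, -0.43 and 0.46, with means of -0.29 ± 0.40 and -0.17 ± 0.55. The tested Mef2a probes thus lay 0.86, 0.66 and 0.30 apart on replicates 1, 2 and 3, more than the 0.04 by which probe 1 ranged over the arrays.

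Mef2c (chr13:83504017-83667079) probe 1 gave 2023, 1964 and 1780 in Cy3, a 1.14-fold range, and 1972, 3167 and 1965 in Cy5. Replicate 2 stood out in Cy5, and the ratios of -0.04, 0.69 and 0.14 averaged 0.27 ± 0.38 (SD, n = 3). Mef2c probe 2 was dim, with a mean signal of 26.8 and well above background in 1 of 3 Cy3 channels. Its ratios of 0.98, 1.74 and -0.89 each passed the array p, in opposite directions (mean 0.61 ± 1.35).

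SRF, also a MADS-box factor, and myocardin, a coactivator that reaches CArG boxes through SRF, control contractile and cytoskeletal genes. Srf (chr17:46546838-46558267) gave 8288, 12129 and 6244 in Cy3 and 8363, 11169 and 7925 in Cy5. Its ratios of 0.01, -0.12 and 0.34 carried no array p under 0.05, and the mean was 0.08 ± 0.24 (SD, n = 3; moderated interval -0.35 to 0.51). Myocd (chr11:65173608-65269989) moved far more. Probe 1 gave 2787, 2115 and 1324 in Cy3 and 1531, 2449 and 2716 in Cy5, so Cy3 was highest on the array on which Cy5 was lowest. The Myocd ratios of -0.86, 0.21 and 1.04 averaged 0.13 ± 0.95 (SD, n = 3; moderated interval -0.64 to 0.89). The first and the last had a single-array p of 7.82e-05 and 4.08e-06, in opposite directions. Myocd probe 2 gave -0.46, -0.73 and 0.15, which differed from probe 1 in direction on replicate 2. The 4 smooth muscle markers (Myh11, Acta2, Tagln and Cnn1), all well above background, had a median log2 ratio of 0.19, -0.16 and 0.54 on the arrays, and the part of smooth muscle in the Myocd values was not tested.

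TBX5 and TBX20 are T-box factors of chamber growth and of conduction and contractile gene expression. Tbx5 (chr5:119796514-119885220) probe 1 gave 905, 1530.3 and 1622 in Cy3 and 1304, 1962 and 1797 in Cy5. Cy5 was brighter on each array, though the channels overlapped across arrays, and the ratios of 0.53, 0.36 and 0.15 averaged 0.34 ± 0.19 (SD, n = 3), a 1.27-fold difference. Of the tested member probes this one had the lowest unadjusted limma p, and its moderated interval, from -0.10 to 0.78, included 0.

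The second Tbx5 probe shares no run of at least 20 bases with the first and is shown because the pair differed in direction on replicate 2.
Tbx5 probe 2: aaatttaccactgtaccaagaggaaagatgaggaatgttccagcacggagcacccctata
It gave 64.8, 163 and 6.72 in Cy3 and 94.3, 123 and 33.3 in Cy5, and the Cy3 reading of replicate 3 was not well above background. Its ratios of 0.54, -0.40 and 2.31 averaged 0.82 ± 1.38 (SD, n = 3), of which the last rests on that reading. On replicate 1 the Tbx5 probes lay 0.01 apart.

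Tbx20 (chr9:24720812-24774303) had 4 probes, of which 3 were tested. Probe 1 gave 1095, 1890.3 and 1356 in Cy3 and 1629, 2306 and 1397 in Cy5, with ratios of 0.57, 0.29 and 0.04. Cy5 was brighter on each array, and the mean was 0.30 ± 0.27 (SD, n = 3; moderated interval -0.16 to 0.76). Probe 2 had ratios of -0.10, 0.0038 and 0.70 and was highest on the array on which probe 1 was lowest. Probe 3, with a mean signal of 23.7 and 2 of its channel readings well above background, had ratios of -1.35, -0.59 and 1.32. Probe 4 had a mean signal of 5.45, was not well above background in any channel and was not tested.

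HAND2 is a basic helix-loop-helix factor of right ventricular development. Hand2 (chr8:57320983-57324517) probe 1 gave 357, 696 and 254 in Cy3 and 448, 565 and 342 in Cy5, with ratios of 0.33, -0.30 and 0.43. Probe 2, which shares the 23 bases shown above, gave 255, 552 and 177 in Cy3 and 324, 419 and 245 in Cy5, with ratios of 0.34, -0.40 and 0.46. The overlapping probes differed by 0.02, 0.10 and 0.03 on replicates 1, 2 and 3, while the arrays differed by up to 0.73 for probe 1 and 0.86 for probe 2. Replicate 2 went the other way from replicates 1 and 3, and the means were 0.15 ± 0.40 and 0.14 ± 0.47 (SD, n = 3).

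**Figure D3:**
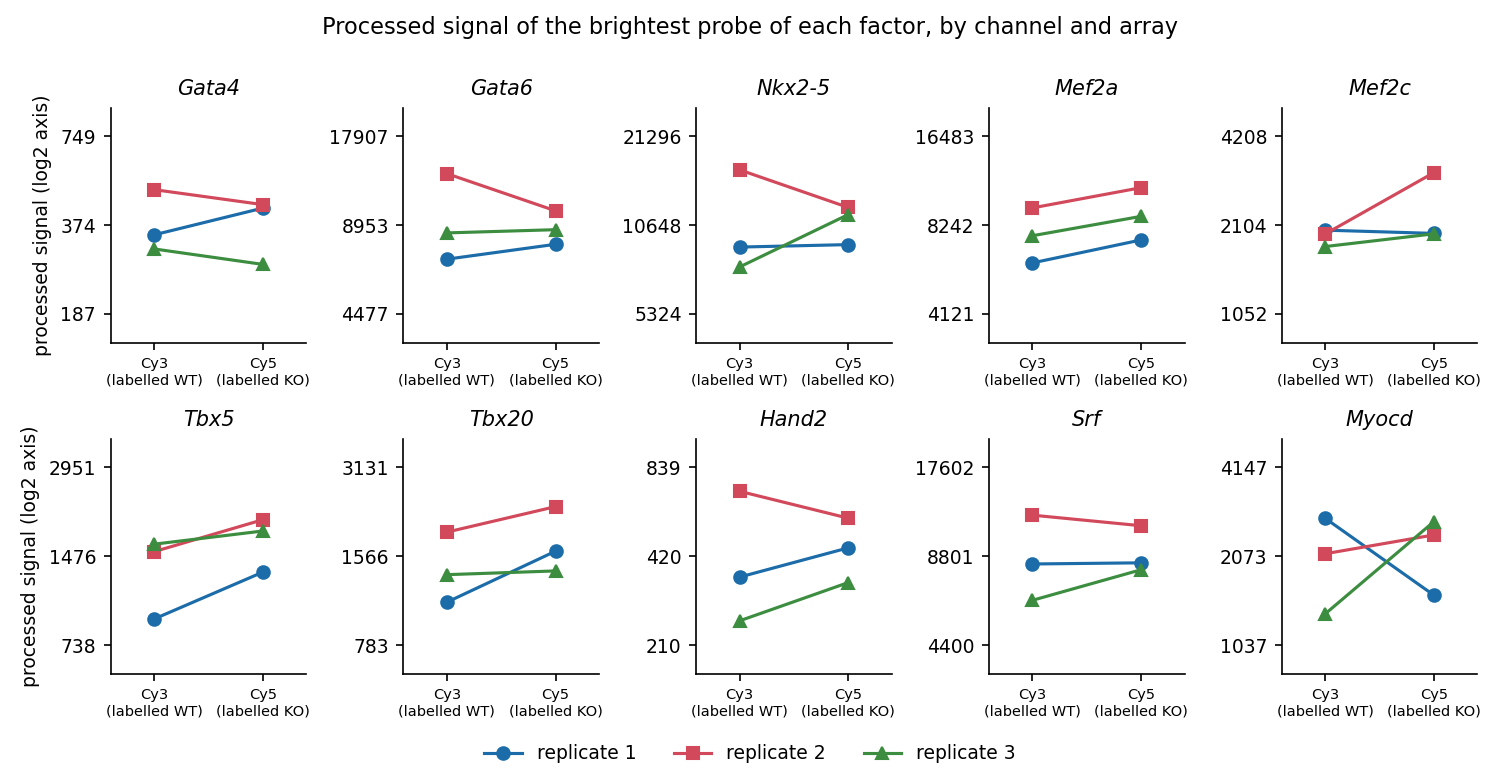
Processed signal (log2 axis, each panel spanning the same fold range) of probe 1 of each factor in the Cy3 (labelled WT) and Cy5 (labelled Lrrc10-/-, KO) channels, with a line joining the channels of an array. Lines rise on every array for Mef2a, Tbx5 and Tbx20 and cross or change slope for the other factors, most widely for Myocd.

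The members were read differently on different arrays. Of the 20 tested probes, 11 were brighter in Cy5 on replicate 1, 7 on replicate 2 and 18 on replicate 3, where 50.4%, 50.5% and 49.2% of all probes were. An array p under 0.05 with Cy5 brighter was reached by 3 of 20 member probes on replicate 1 (12.2% of all probes), 2 on replicate 2 (19.0%) and 10 on replicate 3 (14.9%). With Cy3 brighter the counts were 5 (13.0%), 7 (18.6%) and 1 (13.7%). Most readings that passed on the Cy5 side were thus on replicate 3, and most of those on the Cy3 side on replicate 2.

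For 7 of 20 member probes, of Gata4, Gata6, Nkx2-5, Mef2a, Mef2c, Tbx20 and Myocd, arrays passed the array p in opposite directions, against 15.4% of all tested probes. The ratio was lowest on replicate 2 and highest on replicate 3 for 8 of 20 (19.2% of all probes), and lower on replicate 2 than on replicate 3 for 14 of 20 (50.7% of all probes). It ranged over more than 1 on the log2 scale for 8 of 20 (31.9% of all probes), and the median range was 0.83 among member probes and 0.73 among all. Among probes well above background in every channel it did so for 5 of 17 members (29.4%, against 27.2% of all such probes). The ratios of the 20 member probes correlated between arrays with r of 0.51 (replicates 1 and 2), -0.37 (1 and 3) and -0.51 (2 and 3), as a description over probes of 10 genes that share arrays and, in part, transcripts.

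Without replicate 3, 4 member probes had a ratio of at least 1.2 in the same direction with an array p under 0.05 on the other two arrays. They were Mef2a probes 2 and 3 and Myocd probe 2, brighter in Cy3 (2.25% of all probes met this), and the dim Mef2c probe 2, brighter in Cy5 (3.95% of all probes). On replicate 3 each of the 4 turned, with ratios of 0.16, 0.46, 0.15 and -0.89. By limma none of the member probes passed without that array.

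Within an array, the probes of a gene could also disagree. Of the 8 members with several tested probes, 5 had probes on both sides of 0 on replicate 1, 4 on replicate 2 and 2 on replicate 3, where 43.8%, 38.2% and 47.6% of the 6410 genes with several tested probes did. Taking the brightest probe of each gene, 8, 5 and 9 of the 10 genes were brighter in Cy5 on replicates 1, 2 and 3. Their median log2 ratio was 0.21, 0.05 and 0.18 on the arrays and 0.14 for the mean over arrays, beside -0.01 for the 20603 genes tested. It fell to 0.04 without replicate 3 and was 0.072 with the mean over all probes of a gene. Over all 20 member probes the median was 0.10, and by array 0.02, -0.35 and 0.39, so the choice of probe set the sign on replicate 2.

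Each channel of each array was centred on its median log2 processed signal, and the SD over the arrays was wider in Cy3 than in Cy5 for 13 of 20 member probes, against 77.7% of all tested probes. Without the centring it was wider in Cy3 for 17 of 20, against 65.7% of all, so whether the members lay below or above the share of all probes depended on the centring. Of the 17 member probes well above background in every channel, 11 were wider in Cy3 with the centring (78.8% of all such probes) and 14 without it (64.9%). The median SD was 0.36 in Cy3 and 0.23 in Cy5 among member probes, and 0.38 and 0.22 among all. Among these 17 the gap was widest for Gata4 probe 2 (0.84 in Cy3 and 0.14 in Cy5). Tbx5 probe 2 (2.11 and 0.76) and Mef2c probe 2 (1.36 and 0.19) had wider gaps, but each had Cy3 readings that were not well above background. Mef2a probe 3 (0.07 and 0.49) and Gata4 probe 1 (0.07 and 0.23) went the other way.

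**Figure D4:**
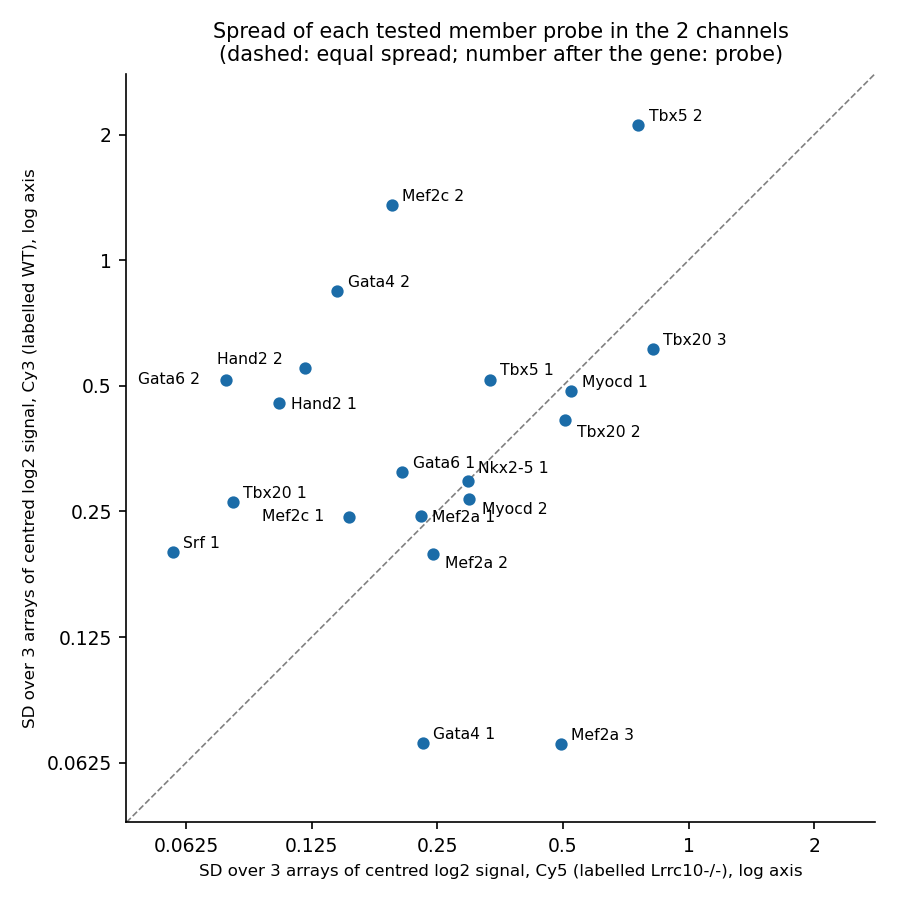
SD over 3 arrays of the log2 processed signal, centred by channel and array, of the 20 tested member probes in Cy5 (horizontal) and Cy3 (vertical), both on log axes. Of the 20 points 13 lie above the dashed line of equal spread, where Cy3 varied more.

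The partners of the members were read in the same way. Of 31 other cardiac transcription factors, 28 were tested, and Gata5, Hand1 and Isl1 were too dim. By limma 0 were called in either direction, 3 kept to the Cy5 side on each array and 3 to the Cy3 side (10.7% each), where 9.47% and 12.2% of all tested genes were. Their median was -0.05, beside -0.01 for all tested genes. Klf15, a Krüppel-like factor of cardiac metabolism, had ratios of 0.58, 0.32 and 0.20 (mean 0.37 ± 0.20, SD, n = 3), Foxp1 a mean of 0.15 ± 0.14 and the T-box repressor Tbx3 of 0.13 ± 0.02. On the Cy3 side stood Irx5, a homeodomain factor of the repolarisation gradient, with -0.71, -1.01 and -0.61 (mean -0.78 ± 0.21, SD, n = 3; limma adjusted p = 1.0), beside Heyl (-0.44 ± 0.45) and Tbx2 (-0.19 ± 0.20). Irx5 alone of this list passed the ratio of 1.2 in one direction on all arrays, and it met the array selection.

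Of 18 cofactors that bind the members or modify their activity, all were tested, 0 were called by limma, 0 were brighter in Cy5 and 3 in Cy3 on all arrays (16.7%, against 12.2% of all tested genes), and the median was -0.09. Hopx, a homeodomain protein that restrains SRF, had ratios of -0.48, -0.35 and -0.20 (mean -0.34 ± 0.14, SD, n = 3). Camta2, a transcription coactivator that works with NKX2-5, had -0.10, -1.28 and -0.83 (mean -0.73 ± 0.59). Fhl2, a LIM protein, was the third and met the array selection, but was saturated in some channels.

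Of 29 genes known as targets of the members, all were tested, 0 were called by limma, and on all arrays 3 were brighter in Cy5 (10.3%, against 9.47% of all tested genes) and 7 in Cy3 (24.1%, against 12.2%). Of the 7, Tnnt2 and Myl2 were saturated in both channels of every array and carry no fold, which leaves 5 of 27. Myh7, Atp2a2 and Tnni3 among those 5 also had saturated readings, as did Myh6 and Actc1 among the other targets. Only Nppa and Nppb of the 5 were free of saturation. The array selection, met by 0.511% of all probes in Cy3, held Nppa and Myh7 beside the saturated pair. The ratio of at least 1.2 alone added Cnn1 in Cy5 and, in Cy3, Atp2a2, the calcium pump of the sarcoplasmic reticulum, with readings saturated in some channels. Myh7, the slow myosin heavy chain, had ratios of -1.99, -2.58 and -0.88 (mean -1.82 ± 0.86, SD, n = 3; limma adjusted p = 0.648), with its Cy3 reading saturated on replicate 2. Nppa, which encodes atrial natriuretic factor, had ratios of -0.89, -0.61 and -0.82 (mean -0.78 ± 0.14, SD, n = 3; limma adjusted p = 1.0). Nppb, which encodes brain natriuretic peptide, had -1.42, -0.22 and -0.88 (mean -0.84 ± 0.60). On the Cy5 side were Cnn1 (calponin, 0.56 ± 0.30), Ppargc1a (a coactivator of mitochondrial genes, 0.36 ± 0.30) and Tnnc1 (cardiac troponin C, 0.15 ± 0.10). The median of the 27 targets without the saturated pair was -0.03. Without replicate 2 the median of all 29 turned from -0.08 to 0.05 and that of the other factors from -0.05 to 0.11.

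The summed signal of 4 atrial markers (Myl4, Myl7, Sln and Nppa), all well above background, was 76789 to 120935 in Cy3 and 43551 to 84070 in Cy5, and Nppa made up most of it. Without Nppa, replicates 1, 2 and 3 summed to 583, 889 and 577 in the Cy3 channel against 537, 5628 and 456 in Cy5, so the other three markers were far brighter in Cy5 on replicate 2 while Nppa was brighter in Cy3. The part of atrial tissue in the ratios of Nppa, Nppb and the T-box factors was not tested. The 4 epicardial markers (Wt1, Tbx18, Upk3b and Msln), of which Upk3b was not well above background throughout, summed to 690 to 1342 in Cy3 and 533 to 707 in Cy5, and their median log2 ratio was -0.58, -1.15 and -0.54 on replicates 1, 2 and 3. On replicate 2 the median was also below 0 for the endothelial (-0.62), fat (-0.50), fibroblast (-0.36), smooth muscle (-0.16) and skeletal muscle (-0.10) markers. It was above 0 for the red blood cell (0.96) and atrial (2.41) markers. The cardiomyocyte median (-0.48) carries no reliable fold, since 5 of the 6 markers had saturated readings. Some fat and skeletal muscle markers were not well above background, and these sets and the red blood cell set were saturated in part. The part of these cells in the ratios was not tested.

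The medians of the other factors, the cofactors and the 27 targets without the saturated pair were 0.07, -0.04 and 0.02 on replicate 1, -0.34, -0.39 and -0.45 on replicate 2 and 0.08, 0.03 and 0.34 on replicate 3. On replicate 2 the members had 0.05 by the brightest probe of each gene and -0.35 over all 20 probes, and all tested genes had 0.04.

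**Figure D5:**
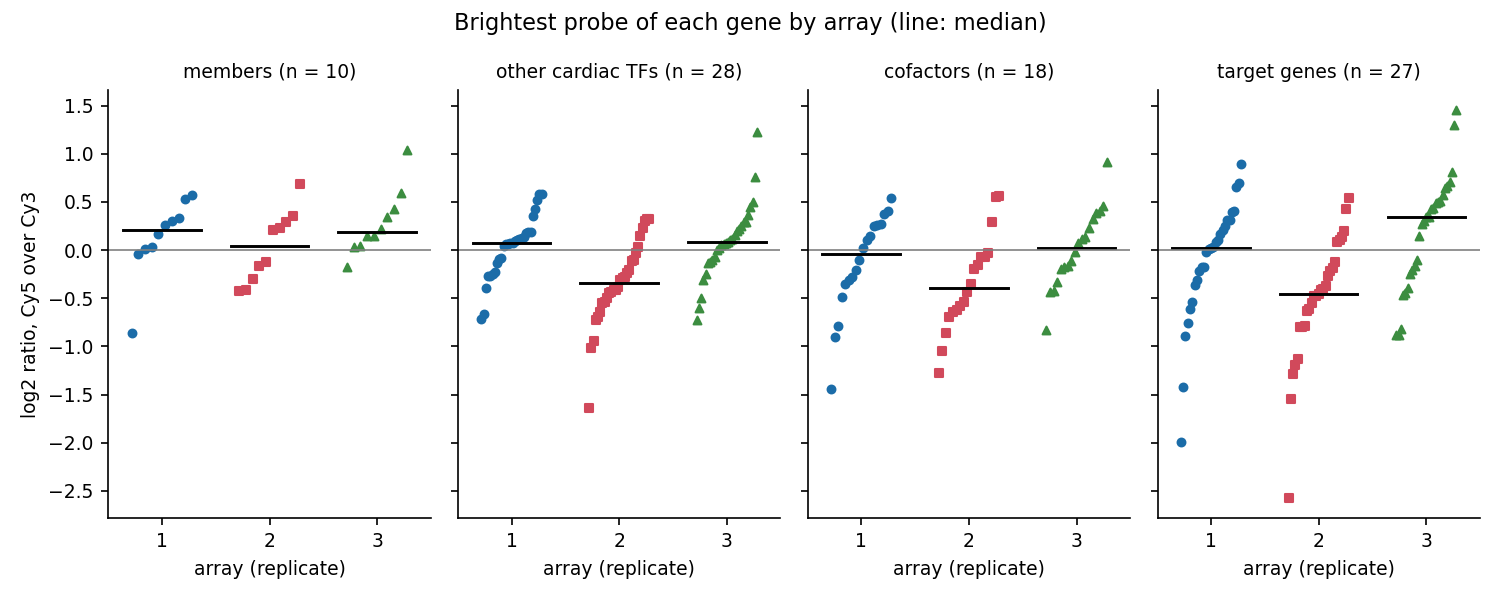
Log2 ratio of Cy5 over Cy3 of the brightest probe of each gene by array, for the 10 members, 28 other cardiac transcription factors (TFs), 18 cofactors and 27 target genes that were not saturated throughout, with the median as a line. The medians of the 3 other lists lie below 0 on replicate 2, and points of every list lie on both sides of 0 on every array.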

How the data were processed

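Gene expression was measured in 3 two-colour arrays of adult mouse hearts. For each array the authors deposited a Feature Extraction table (Agilent, version 9.1.3.1). Its mean signal and median background intensity columns are unnormalized, and its processed signal intensity had, as deposited, background subtracted and the dyes normalized within the array. The deposited log10 ratio divides the processed Cy5 signal by the processed Cy3 signal and is set to 0 for spots at a surrogate value in both channels. The deposited p-value and log10 ratio error belong to a single spot. The authors' value table of log10 ratios held the same ratios, with 1 value missing on replicate 1. The number of arrays limits the precision. All arrays lay on 1 slide.

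Log10 ratios were converted to log2, outlier spots (4 to 21 per array) were dropped and spots of a probe averaged. Probes with a geometric mean processed signal of at least 20 were tested with limma 3.58.1 in R 4.3.3 (intercept against 0, eBayes with intensity trend, two-sided, Benjamini-Hochberg over 29576 probes), after a check on simulated data. Intervals are 95% moderated intervals. With 3 arrays, the smallest p of an exact two-sided sign-flip test is 0.25. Gene names came from a RefSeq table by accession for 24844 probes and otherwise from the array files. Probes were not placed on the genome here. Promoters and gene positions were taken from RefSeq tables (GRCm38.p6). Plots were drawn with matplotlib 3.10.9.

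The members, the gene lists and the tests were chosen with earlier results of these data known. Named were every member probe, Lrrc10 and, in each other list, up to 4 genes per direction with the largest mean ratio among those with the same sign on all arrays, well above background in every channel and never saturated. Genes that met the selection by ratio or array p, were called by limma or were too dim to be tested were named besides, after their values were seen. So were the target genes with saturated readings. Alternatives covered background correction, dye normalization, centring, signal filters, the test, the probes of a gene, the value table and each array left out.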

Additional observations from a re-analysis of the deposited data

How the results depend on the processing

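In the 13 alternatives to the processing and the test 0 member probes were called by limma or by the methods' t-test, and the lowest adjusted p of a member was 0.083 (Tbx20 probe 1). At an unadjusted p under 0.05 the t-test passed 1 of 20 member probes (Mef2a probe 1, adjusted p = 1.0 over all probes) against 4.21% of all probes, and normexp background correction centred on the median passed 7 (35.0%) against 30.5%. It was passed by 2 of 22 with no signal filter (4.25% of all), 2 of 20 without replicate 3 (6.72%) and 1 without replicate 2 (4.83%), and by 0 in the other alternatives. Normexp centred on the median moved the median of all tested probes by 0.15, so its member ratios are read against that shift.

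Over all probes the 2 calls became 0 with no signal filter and with the t-test, and 1 with a signal of at least 50, with probes well above background throughout, and with normexp and loess. Leaving out an array gave 0 to 543 calls over all probes and 0 to 4 member probes by the array selection, 543 and 4 without replicate 3. The Lrrc10 log2 ratio was 4.31 with normexp and loess and 4.70 with normexp centred on the median. It was 5.37 but missed the threshold with no filter (adjusted p = 0.975) and with the t-test (adjusted p = 1.0), and ran from 5.23 to 5.60 with an array left out (without replicate 2, 5.28 and adjusted p = 0.0793). The cause was not tested.

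The median of the member genes ran from 0.04 (without replicate 3) to 0.21 with an array left out, was 0.072 with the mean over all probes of a gene, and was 0.37 with normexp centred on the median, where other cardiac transcription factors had 0.25, cofactors 0.27 and targets 0.22. With an array left out the other factors ran from -0.14 to 0.11 and the targets from -0.31 to 0.05, above 0 without replicate 2 in both, and the cofactors from -0.17 to -0.04. Signs turned with the mean over all probes for Mef2a (-0.076) and Myocd (-0.11). With normexp and loess they turned for Gata4 probe 1 (0.16), Nkx2-5 (-0.14), Mef2a probe 1 (-0.04), Mef2a probe 3 (0.067) and Srf (-0.18). With normexp centred on the median they turned for Gata4 probe 1 (0.36), Gata4 probe 2 (0.059), Gata6 probe 1 (0.29), Gata6 probe 2 (0.13), Mef2a probe 3 (0.24) and Mef2c probe 2 (-0.058).

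With an array left out the range crossed 0 for probe 1 of Gata4 (-0.17 to 0.066), Gata6 (-0.19 to 0.10), Nkx2-5 (-0.20 to 0.31), Srf (-0.053 to 0.18) and Myocd (-0.33 to 0.62). It also crossed 0 for probe 2 of Gata4 (-0.73 to 0.23), Gata6 (-0.39 to 0.19), Tbx20 (-0.049 to 0.35) and Hand2 (-0.027 to 0.40), and for probe 3 of Mef2a (-0.49 to 0.016) and Tbx20 (-0.97 to 0.36). Probe 1 of Tbx5, Tbx20, Hand2 and Mef2c and probe 2 of Mef2a, Tbx5 and Myocd kept their sign in all alternatives that gave them a value. Each ratio already pairs the channels of an array, so every test was paired by array and had no unpaired form. The slide could not be fitted as a block, since all arrays lay on 1 slide.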
